A study of Mus musculus with 33 samples.

Results

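The naive pluripotency transcription network was followed here as 10 genes, chosen by gene name: *Klf2*, *Klf4*, *Klf5*, *Esrrb*, *Tfcp2l1*, *Tbx3*, *Zfp42*, *Prdm14*, *Nr0b1* and *Dppa3*. All 10 were found among the 55487 genes of the deposited tables, and all 10 passed the filter on low counts in every comparison. Their levels were compared in mouse embryonic stem cells (ESCs) lacking members of the HP1 family, or SETDB1. On GRCm38, *Klf2* lies on chromosome 8 from 72319033 to 72321656 and *Zfp42* on the same chromosome from 43295063 to 43306980. *Tfcp2l1* (118627945 to 118685168) and *Prdm14* (13113457 to 13127163) are both on chromosome 1. *Klf4* is on chromosome 4 from 55527143 to 55532466, *Klf5* on chromosome 14 from 99298691 to 99315036 and *Esrrb* on chromosome 12 from 86361117 to 86521628. *Tbx3* is on chromosome 5 from 119670669 to 119684724, *Dppa3* on chromosome 6 from 122626410 to 122630272 and *Nr0b1* on the X chromosome from 86191764 to 86195947.

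Naive pluripotency is the state of the pre-implantation epiblast, and mouse ESCs hold it through a set of transcription factors that sustain one another's expression. LIF signalling through STAT3 feeds the network mainly through *Klf4* and *Tfcp2l1*, and the release of TCF7L1 repression feeds it through *Esrrb*. The genes are turned off when ESCs leave this state. HP1 proteins bind histone H3 methylated at lysine 9, a mark of heterochromatin, and SETDB1 is one of the enzymes that write it.

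RNA-seq was made from 33 libraries in 11 conditions of 3 libraries each, all of ESCs labelled C57BL/6. ESCs named HP1αKO, HP1βKO or HP1γKO lack 1 paralog, encoded by *Cbx5*, *Cbx1* or *Cbx3*. A pair is missing from HP1β/αDKO, from HP1γ/αDKO and from HP1β/γDKO ESCs, and all are missing from HP1β/γ/αTKO cells. The remaining conditions are SETDB1KO cells, the SETDB1FF ESCs with floxed alleles that are their control, and 2 sets of libraries labelled with the *wild-type* genotype, called set A and set B here. Set A is the control of the single mutants, of HP1β/αDKO ESCs and of HP1β/γ/αTKO cells, and set B is the control of HP1γ/αDKO and HP1β/γDKO ESCs. Comparisons with the same control share its libraries, so that they are not independent. According to the study's methods, single and double mutants were constitutive CRISPR/Cas9 knockouts grown from isolated clones. HP1β/γ/αTKO cells were obtained by *Cre* transfection of HP1β/αDKO ESCs with a floxed *Cbx3*, and their RNA was taken within days of it. The study reports apoptosis, cell-cycle arrest and a differentiated morphology in HP1β/γ/αTKO cells, and the part of these in the levels below was not tested. For HP1β/γ/αTKO cells the study's description of these libraries names cells with a control vector as the control, whereas the labels name *wild-type*. Whether the set A libraries were transfected is not given in the sources used here, so that the loss of all paralogs and *Cre* transfection cannot be told apart. Per the study, *Setdb1* was also deleted by *Cre*, from the floxed alleles of SETDB1FF ESCs. Whether the SETDB1FF libraries had a control transfection is not given either, so that the loss of SETDB1 and *Cre* cannot be told apart. The cells were kept in serum and LIF on feeder fibroblasts that were removed by pre-plating. Whether the libraries of a genotype came from 1 clone is not given in the sources used here, and p-values measure the spread between libraries only.

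Total counts per library ran from 17330936 to 25743149. Levels are given as CPM, counts scaled to a common library size, after scaling of all libraries together by edgeR's TMM method. The mRNA of each targeted gene was lower than in its control, from a log2 fold change of −3.27 for *Cbx1* in HP1β/γ/αTKO cells to −0.81 for *Cbx5* in the same cells, but reads outside the edited exons are still counted. *Setdb1* had a log2 fold change of −0.93 in SETDB1KO cells. In set A *Cbx5* had 479 to 490.4 CPM and *Cbx1* 430.4 to 448.2, near set B (438.8 to 476.4 and 373.2 to 408.6). HP1β/αDKO ESCs had 198.5 to 207.6 and 94.7 to 97.6 CPM, so that set A did not show their loss of these mRNAs. The ESC markers *Pou5f1*, *Sox2*, *Nanog* and *Sall4* summed to between 764.1 and 3194 CPM in every library. The 2nd library of HP1γ/αDKO ESCs stood apart, with a correlation of 0.963 and 0.966 with the others of its condition, where these correlated at 0.9895. The 10 feeder fibroblast genes summed to 34.8 to 39.2 CPM in set A, 52.5 to 60.5 in set B, 13.3 to 14.3 in HP1γ/αDKO ESCs, 24.1 to 28.2 in HP1β/γ/αTKO cells, 16.9 to 18.2 in SETDB1FF ESCs, 14.1 to 14.5 in SETDB1KO cells and 36.9 to 46.8 in the other conditions.

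Sequence upstream of the start site is shown for the genes that were down-regulated in HP1β/γ/αTKO cells and for *Esrrb* and *Zfp42*. *Esrrb* and *Zfp42* were not called in either HP1β/γ/αTKO or SETDB1KO cells. Nor was *Klf4*, whose promoter was searched but is not printed. The RefSeq promoter table (GRCm38.p6) held 6 of the 10 genes, *Klf2*, *Klf4*, *Esrrb*, *Tfcp2l1*, *Zfp42* and *Nr0b1*. The sequences run 5′ to 3′ on the strand of the gene, for 210 bases that end 41 bases before the RefSeq start. Capitals mark matches, on either strand, to the KLF-type GT box GGGTGTG, the GC box GGGCGG, the octamer part ATGCAAA, the STAT site TTCNNNGAA or the ESRRB-type half-site AAGGTCA.
*Klf2* (chr8:72318812-72319021, plus strand): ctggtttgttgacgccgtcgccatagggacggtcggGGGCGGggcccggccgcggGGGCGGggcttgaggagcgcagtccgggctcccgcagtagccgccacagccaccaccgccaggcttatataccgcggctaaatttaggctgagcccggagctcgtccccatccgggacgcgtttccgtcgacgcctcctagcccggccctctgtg
*Tfcp2l1* (chr1:118627695-118627904, plus strand): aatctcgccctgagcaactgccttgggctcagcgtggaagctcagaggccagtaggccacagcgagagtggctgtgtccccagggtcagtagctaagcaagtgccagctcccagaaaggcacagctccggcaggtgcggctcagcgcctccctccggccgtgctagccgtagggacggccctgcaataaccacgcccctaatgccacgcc
*Nr0b1* (chrX:86191525-86191734, plus strand): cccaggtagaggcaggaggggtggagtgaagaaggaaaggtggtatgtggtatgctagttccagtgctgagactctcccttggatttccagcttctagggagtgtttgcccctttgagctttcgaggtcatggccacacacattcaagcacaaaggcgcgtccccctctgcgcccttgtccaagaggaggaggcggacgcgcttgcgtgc
*Esrrb* (chr12:86360867-86361076, plus strand): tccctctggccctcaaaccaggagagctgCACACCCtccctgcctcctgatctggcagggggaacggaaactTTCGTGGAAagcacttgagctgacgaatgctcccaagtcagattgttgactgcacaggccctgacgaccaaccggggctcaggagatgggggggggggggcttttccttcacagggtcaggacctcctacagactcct
*Zfp42* (chr8:43307050-43307259, minus strand): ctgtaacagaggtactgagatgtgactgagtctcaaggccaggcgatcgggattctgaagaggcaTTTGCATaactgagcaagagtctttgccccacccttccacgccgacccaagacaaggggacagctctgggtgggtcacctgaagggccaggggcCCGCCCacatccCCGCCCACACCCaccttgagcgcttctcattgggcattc

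At least 1 of the 5 motifs was found in 4 of the 6 promoters, and the share of all windows with any of them was not computed. In the 250 bases before the start, *Klf2* held 2 GC boxes, *Tfcp2l1* and *Nr0b1* held none of the 5 motifs, and *Klf4* held 4 GC boxes, of which 2 overlap by a base. *Esrrb* held 1 GT box and 1 STAT site at the start shown, and none at its other RefSeq start. *Zfp42* held 1 octamer part, 2 GC boxes and 1 GT box that shares a base with the nearer GC box. Of the 32851 promoter windows of the table, 6.9% held the GT box, 32.7% the GC box, 4.1% the octamer part, 7.0% the STAT site and 4.1% the half-site. CpG dinucleotides numbered 29 in *Klf2* and 32 in *Klf4*, against 16 in *Tfcp2l1*, 11 in *Nr0b1*, 9 in *Zfp42* and 6 in *Esrrb* at the start shown, where the median of all windows was 6.

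**Figure D1:**
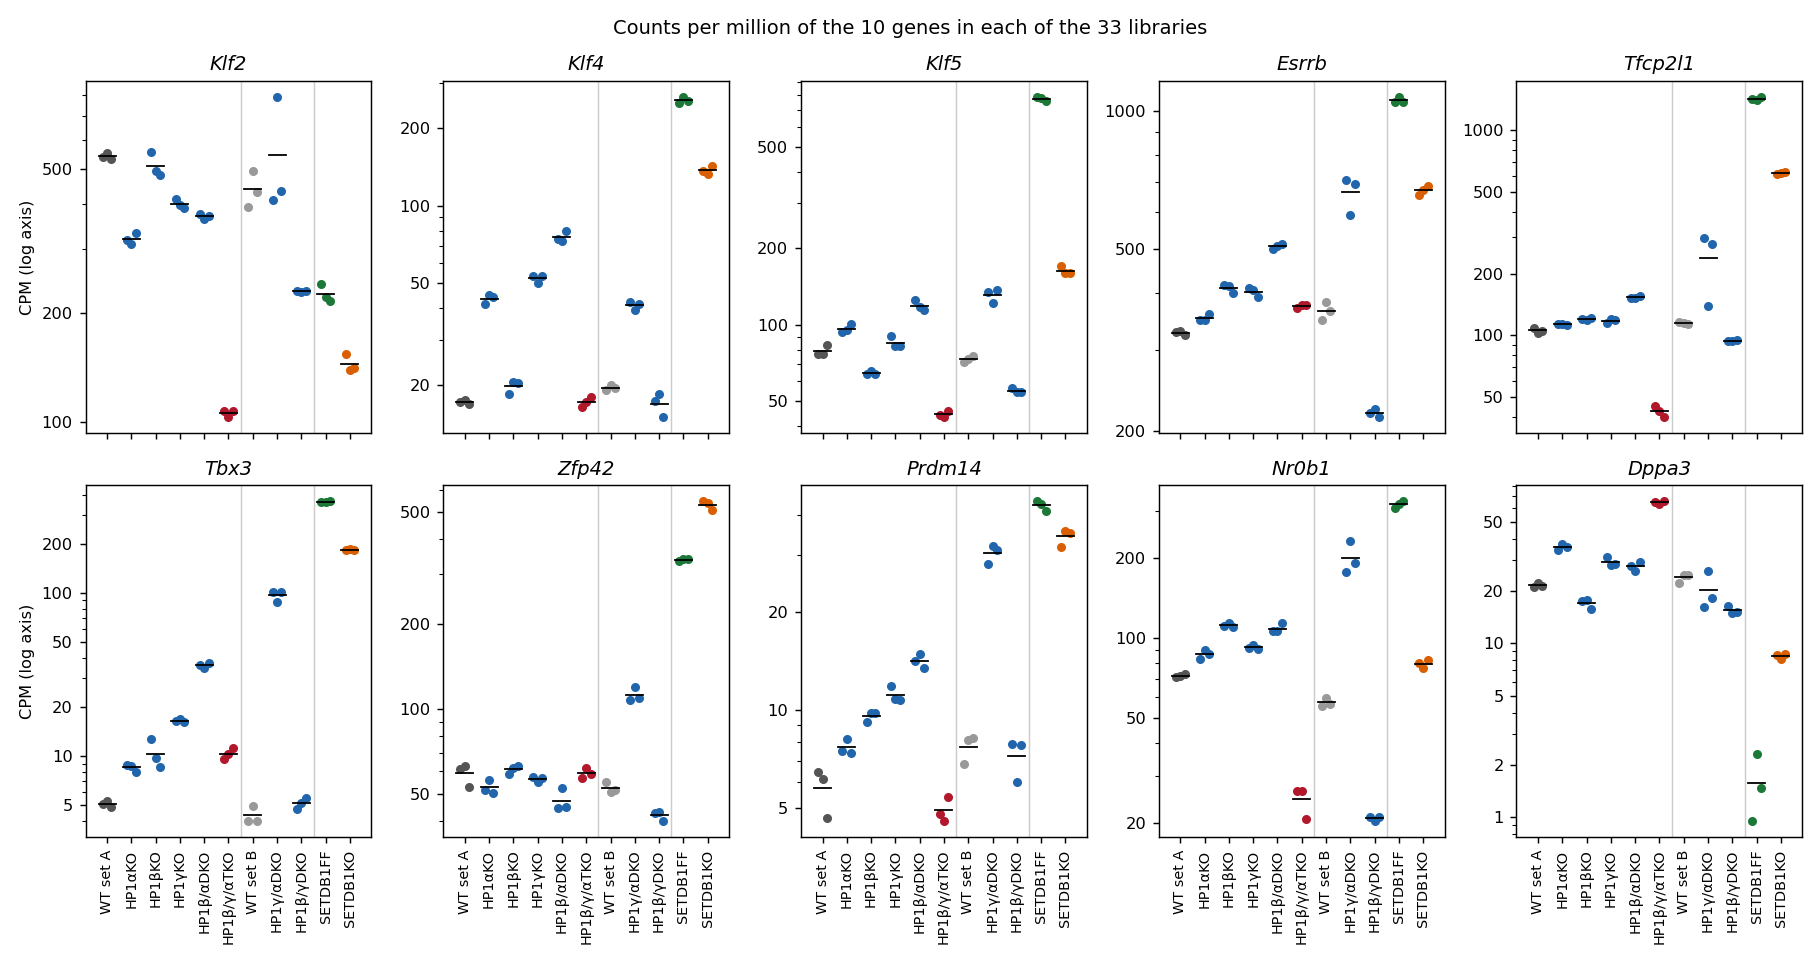
Level of each gene in CPM (log axis) in the 33 libraries, with a point for each library and a bar for the mean of each condition; grey lines part the conditions by control. *Tbx3* ranged from 3.997 to 363.3 CPM, and *Dppa3* was lowest in the SETDB1FF libraries (0.95 to 2.31 CPM).

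In *wild-type* ESCs the network was led by *Klf2* and *Esrrb*. Per transcript length, in the TPM (transcript counts scaled by length and depth) that the authors deposited, *Klf2* stood at 447.6 ± 9.77 (SD, n = 3) in set A, above *Esrrb* at 124.7 ± 2.74 and *Nr0b1* at 60.96 ± 1.04. *Dppa3* and *Zfp42* followed at 52.5 and 51.0 TPM, and their libraries overlapped. Below them came *Klf5* (33.2), *Tfcp2l1* (15.0), *Klf4* (8.33), *Prdm14* (3.25) and, last, *Tbx3* (1.52), each apart from its neighbour. Both *wild-type* sets gave like levels. Against set A, 0 of the 10 genes were called in set B at an adjusted p under 0.05 and a log2 fold change beyond 1, where 5.68% of all genes were, and the log2 fold changes ran from −0.33 for *Nr0b1* to 0.43 for *Prdm14*. At an adjusted p under 0.05 alone 4 were, with 24.8% of all genes, and 8 had an unadjusted p under 0.05 in edgeR's test. DESeq2 called 0 as well.

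SETDB1FF ESCs, the control of SETDB1KO cells, held the network at other levels. *Tbx3*, a T-box factor, had 361.0, 361.8 and 363.3 CPM in the SETDB1FF libraries against 5.09, 5.33 and 4.90 in set A. This was 70.4-fold higher (log2 fold change 6.14, standard error 0.042). *Tfcp2l1*, a CP2-family factor downstream of LIF, had 1424, 1413 and 1455 CPM against 109, 102.5 and 105, and *Klf4* had 251.3, 264.8 and 256.6 against 17.3, 17.6 and 16.9. Only *Klf2* and *Dppa3* were lower. *Dppa3*, which protects maternal DNA methylation in the zygote, had 0.95, 2.31 and 1.48 CPM against 21.1, 22.4 and 21.3, and *Klf2* had 241.2, 221.3 and 215.8 against 538.2, 554.5 and 532.3. In a comparison chosen after these levels were seen, all 10 genes were called against set A, 8 higher and 2 lower, where 28.4% of all genes were called. Against set B it was 8 higher and 1 lower, with 28.7% of all genes, and *Klf2* had a log2 fold change of −0.97. The lines, their tables and their genotypes cannot be told apart here. On chromosome 1, which holds *Tfcp2l1* and *Prdm14*, the median log2 fold change of 909 genes was 0.58 against −0.02 elsewhere. Against set A, 6 of 7 feeder fibroblast genes tested were lower (median −4.92), 5 of 6 primitive endoderm genes were higher (median 3.14) and 6 of 8 formative genes were lower (median −2.36), and their part in these levels was not tested.

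To see what a single paralog contributes, each single mutant was compared with set A. *Klf4*, a LIF-responsive Krüppel-like factor, was called in 2 of the 3 single mutants. It had 41.3, 44.9 and 44.0 CPM in HP1αKO ESCs and 53.4, 50.1 and 53.5 in HP1γKO ESCs, against 17.3, 17.6 and 16.9 in set A. Neither mutant overlapped with the control, and *Klf4* was up-regulated 2.51-fold (log2 fold change 1.32, standard error 0.064, adjusted p = 1.67e-12) and 3.02-fold (1.59, 0.060, adjusted p = 1.87e-13). In HP1βKO ESCs it had 18.6, 20.7 and 20.4 CPM and was not called (0.19, adjusted p = 0.0714).

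*Tbx3* was called in 1 of them. It had 16.3, 16.8 and 16.1 CPM in HP1γKO ESCs, where it was up-regulated 3.20-fold (1.68, standard error 0.107). In HP1βKO ESCs *Tbx3* had 12.8, 9.66 and 8.54 CPM and a log2 fold change of 0.99, just under the threshold, which it passed with DESeq2 (1.02), with set B as the control (1.23) and without the 2nd (1.04) or 3rd (1.11) library of these cells. In HP1αKO ESCs it was 0.73. *Prdm14*, a PR-domain factor that holds down FGF signalling and DNA methylation in ESCs, had a log2 fold change of 0.94 in HP1γKO, 0.72 in HP1βKO and 0.41 in HP1αKO ESCs. With set B as the control its value in HP1αKO ESCs was −0.005.

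In all, 1 of the 10 genes was called in HP1αKO ESCs (4.87% of all genes), 0 in HP1βKO ESCs (9.1%) and 2 in HP1γKO ESCs (5.59%), all of them higher. At an adjusted p under 0.05 alone the numbers were 10, 7 and 8, with 45%, 51.1% and 46.7% of all genes. In HP1βKO ESCs 9 had an unadjusted p under 0.05 in edgeR's test and DESeq2 called 1. With set B as the control, *Esrrb* (−0.05), *Tfcp2l1* (−0.01), *Zfp42* (0.01) and *Prdm14* had the other sign in HP1αKO ESCs. So did *Klf2* (0.20) in HP1βKO and *Zfp42* (0.11) in HP1γKO ESCs. *Klf2*, the Krüppel-like factor tied to low ERK activity, had a log2 fold change of −0.76 in HP1αKO ESCs, and lay at −0.44 in HP1γKO and −0.11 in HP1βKO ESCs. *Zfp42*, also known as *Rex1* and used as a reporter of the naive state, had log2 fold changes between −0.17 and 0.03, and *Tfcp2l1* between 0.10 and 0.17.

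Loss of HP1α and HP1β together took *Klf4* and *Tbx3* further. In HP1β/αDKO ESCs *Klf4* had 74.4, 72.9 and 79.6 CPM, 4.38-fold above set A (log2 fold change 2.13, standard error 0.058, adjusted p = 9.48e-15). *Tbx3* had 36.0, 34.7 and 37.1 CPM, 7.03-fold above set A (2.81, 0.086, adjusted p = 4.73e-14). *Prdm14* had 14.2, 14.9 and 13.5 CPM against 6.48, 6.16 and 4.65, a log2 fold change of 1.30, which was under the threshold at 0.88 with set B as the control. These 3 were the members called, where 8.15% of all genes were. *Esrrb* (0.63), *Nr0b1* (0.59), *Klf5* (0.58) and *Tfcp2l1* (0.54) had positive log2 fold changes short of the threshold, and *Klf2* (−0.55) and *Zfp42* (−0.32) negative ones. At an adjusted p under 0.05 alone all 10 passed, with 43.4% of all genes.

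The loss of both paralogs was also set against the sum of the single losses. This interaction was above 0 at an adjusted p under 0.05 for 6 genes and below 0 for 1, where 23.4% and 21.6% of all genes were. It was largest for *Tbx3*, at 1.09 on the log2 scale (standard error 0.167, adjusted p = 3.56e-05), followed by *Klf4* at 0.62 and *Klf5* at 0.61. *Klf2*, *Tfcp2l1* and *Esrrb* were at 0.32, 0.28 and 0.22, and *Nr0b1* at −0.28. For *Zfp42* (95% confidence interval −0.39 to 0.04), *Prdm14* (−0.18 to 0.53) and *Dppa3* (−0.21 to 0.20) no departure from the sum was called. With set B as the control the value of *Klf2* was 0.02 and was not called, whereas *Zfp42* (−0.35) and *Prdm14* (0.60) were, and without the 2nd library of HP1β/αDKO ESCs *Zfp42* (−0.26) was.

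**Figure D2:**
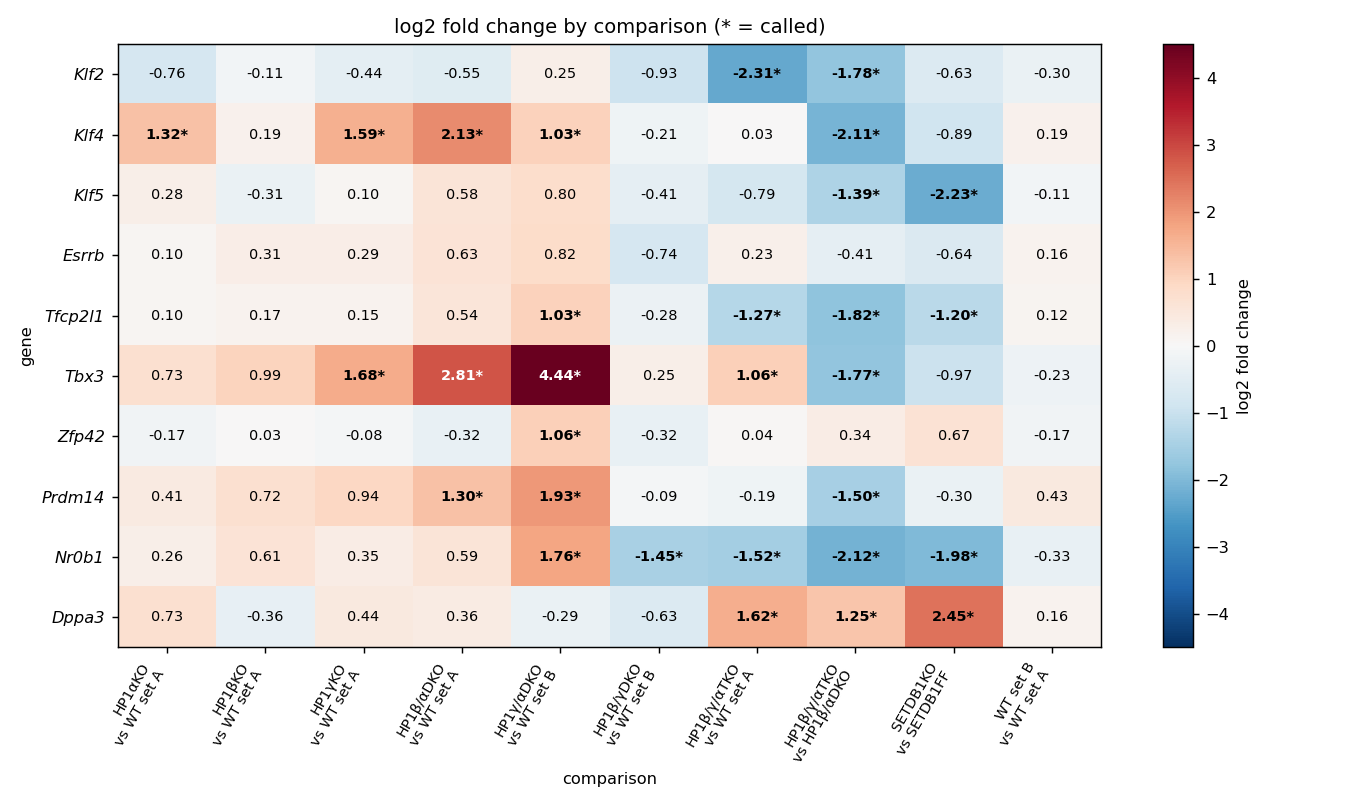
The log2 fold change of each gene (rows) in each comparison (columns), in red where higher and in blue where lower than the control; asterisks mark an adjusted p under 0.05 together with a log2 fold change beyond 1. *Tbx3* reached 4.44 in HP1γ/αDKO ESCs, and 8 genes were called in HP1β/γ/αTKO cells against HP1β/αDKO ESCs.

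The widest increase among the double mutants was in HP1γ/αDKO ESCs. *Tbx3* had 101.0, 88.3 and 100.5 CPM against 3.997, 4.97 and 4.03 in set B, 21.7-fold higher (log2 fold change 4.44, standard error 0.158, adjusted p = 1.58e-05). *Prdm14* had 28.1, 32.1 and 31.2 CPM against 6.86, 8.11 and 8.23 (1.93, 0.124). *Nr0b1*, an X-linked orphan nuclear receptor without a DNA-binding domain of the usual kind, had 176.8, 230.5 and 190.4 CPM against 55.4, 59.5 and 56.1 (1.76, 0.116). None of these groups overlapped. *Zfp42* (1.06), *Tfcp2l1* (1.03) and *Klf4* (1.03) were called too, so that 6 of the 10 genes were called, each of them higher, where 6.75% of all genes were called higher and 16.3% lower. *Esrrb* and *Klf5* had log2 fold changes of 0.82 and 0.80.

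Part of this rested on scaling and on the 2nd library. *Tfcp2l1* had 296.9 and 279.9 CPM in the 1st and 3rd libraries and 138.2 in the 2nd, and *Klf2* had 409.9 and 434.4 against 789.1. Without that library 6 genes were still called, *Tfcp2l1* had a log2 fold change of 1.33 (adjusted p = 1.24e-10) and that of *Klf2* went from 0.25 to −0.06. *Tfcp2l1* was not called without the 1st (0.84) or 3rd (0.90) library, nor without any 1 of the set B libraries (1.02 to 1.04), and *Klf4* was at 0.999 without the 1st. With set A as the control *Zfp42* (0.89) was not called, and with at least 10 counts required in every library *Klf4* (0.995) and *Tfcp2l1* (0.999) were not, which left 5 and 4 genes. With library totals alone, or with limma on log2(TPM + 0.1), 3 genes were called, and *Klf4*, *Tfcp2l1* and *Zfp42* had log2 fold changes of 0.85, 0.87 and 0.88 with the former and 0.62, 0.57 and 0.68 with the latter. These settings moved the median of all genes to −0.19 and −0.38. All 7 of the 7 feeder fibroblast genes tested were lower in HP1γ/αDKO ESCs than in set B, where 16.3% of all genes were. The part of this in the levels above was not tested.

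In HP1β/γDKO ESCs most of the genes had lower levels than in set B. *Nr0b1* had 21.1, 20.4 and 21.1 CPM, less than in every library of set B, and was down-regulated 2.73-fold (log2 fold change −1.45, standard error 0.057, adjusted p = 1.68e-11). It was the 1 gene called of the 10, where 11.9% of all genes were. *Klf2* had 230.2, 228.7 and 230.4 CPM against 393.0, 492.8 and 432.7, and a log2 fold change of −0.93, which was called against set A (−1.23) and without the 1st library of set B (−1.01). *Esrrb*, an orphan nuclear receptor at the centre of the network, had 219.4, 222.8 and 214.8 CPM against 349.9, 381.6 and 366.4 (−0.74), its lowest level in any condition. *Dppa3* lay at −0.63, *Klf5* at −0.41 and *Zfp42* at −0.32. At an adjusted p under 0.05 alone 8 genes passed, each of them lower, where 25.7% of all genes were lower and 26% higher. These cells also held transcripts of the 2-cell-like genes, 41.0 to 41.7 CPM in sum against 0.05 to 0.13 in set B, whose part in these levels was not tested.

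On the loss of all paralogs 3 of the genes fell, 2 rose and 5 were not called. *Klf2* had 107.6, 103.7 and 107.5 CPM in HP1β/γ/αTKO cells against 538.2, 554.5 and 532.3 in set A. It was down-regulated 4.97-fold (log2 fold change −2.31, standard error 0.028, adjusted p = 3.27e-22), from the highest of the members per transcript length to the 3rd. *Nr0b1* had 26.5, 26.5 and 20.8 CPM against 71.1, 71.8 and 72.9, and was down-regulated 2.86-fold (−1.52, 0.073, adjusted p = 2.98e-13). *Tfcp2l1* had 45.2, 42.6 and 39.96 CPM against 109, 102.5 and 105, a 2.42-fold decrease (−1.27, 0.050, adjusted p = 1.43e-14).

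*Dppa3* went the other way, with 65.3, 63.7 and 65.6 CPM against 21.1, 22.4 and 21.3. It was up-regulated 3.08-fold (1.62, standard error 0.055, adjusted p = 1.28e-15) and became the highest of the members per transcript length, at 205.7 ± 3.76 TPM (SD, n = 3) against 52.5 in set A. *Tbx3* had 9.57, 10.4 and 11.2 CPM against 5.09, 5.33 and 4.90 (1.06, 0.129), and its log2 fold change was 0.999 when the 3rd library of HP1β/γ/αTKO cells was left out. Thus 2 genes were higher and 3 lower, where 25.1% and 17.1% of all genes were.

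*Esrrb*, *Klf4* and *Zfp42* were not called in this comparison. *Esrrb* had 371.7, 376.4 and 376.2 CPM against 328.9, 330.8 and 324.0, a log2 fold change of 0.23. *Klf4* had 16.4, 17.3 and 17.99 CPM, overlapping with set A (0.03, 95% confidence interval −0.13 to 0.20), and *Zfp42* had 57.0, 61.5 and 58.9 CPM against 61.4, 62.8 and 53.0 (0.04, −0.09 to 0.16). *Prdm14* lay at −0.19 (−0.54 to 0.16) and *Klf5*, which overlaps in function with *Klf2* and *Klf4*, at −0.79 (standard error 0.050). With limma on log2(TPM + 0.1), where the median of all genes was 0.41, *Klf2* (−1.98) and *Nr0b1* (−1.18) were still lower and *Tfcp2l1* (−0.80) was no longer called, *Klf4* was at 0.41 and *Prdm14* at 0.15.

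Neighbours on the chromosome and markers of other cells moved in the same comparison. Chromosome 8, with *Klf2* and *Zfp42*, had a median log2 fold change of 0.52 over 926 genes against 0.003 elsewhere, and chromosome 6, with *Dppa3*, had 0.38 over 848 genes against 0.02. On chromosome 8 *Klf2* was at −2.31 and *Zfp42* at 0.04, and the part of the chromosome in these values was not tested. Of 6 primitive endoderm genes tested, 5 were higher in HP1β/γ/αTKO cells, where 25.1% of all genes were. The primitive endoderm list summed to 21.6 to 23.9 CPM against 8.34 to 10.9. The 2-cell-like genes summed to 13.9 to 14.5 CPM against 0 in all 3 libraries of set A. Their part in these changes was not tested, and fewer cells that express a gene cannot be told apart from less of its RNA per cell.

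Against HP1β/αDKO ESCs, which lack the same paralogs as the cells before *Cre*, 7 genes were lower in HP1β/γ/αTKO cells and 1 was higher, where 16% and 25.4% of all genes were. *Nr0b1* (−2.12, standard error 0.073) and *Klf4* (−2.11, 0.060) had the largest decreases, followed by *Tfcp2l1* (−1.82), *Klf2* (−1.78), *Tbx3* (−1.77), *Prdm14* (−1.5) and *Klf5* (−1.39). *Dppa3* was 2.37-fold higher (1.25, 0.055). *Klf4* fell from 75.6 ± 3.49 to 17.2 ± 0.78 CPM (SD, n = 3), next to the 17.3 ± 0.32 CPM of set A, and *Prdm14* from 14.2 ± 0.68 to 4.93 ± 0.44, next to 5.76 ± 0.97. *Esrrb* (−0.41) and *Zfp42* (0.34) were not called. This comparison shares libraries with both comparisons against set A, and the 8 genes were called with each of the 6 libraries left out in turn.

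In SETDB1KO cells *Klf5* and *Nr0b1* had the largest decreases. *Klf5* had 169.7, 159.4 and 159.7 CPM against 786.0, 777.6 and 755.5 in SETDB1FF ESCs, a 4.70-fold decrease (log2 fold change −2.23, standard error 0.027, adjusted p = 1.08e-20). *Nr0b1* had 80.0, 76.8 and 82.6 CPM against 307.0, 319.3 and 326.0, a 3.94-fold decrease (−1.98, 0.032, adjusted p = 4.42e-19). *Tfcp2l1* fell from 1431 ± 21.8 to 617.4 ± 7.17 CPM (SD, n = 3; −1.20, 0.018).

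*Dppa3* was the 1 gene up-regulated, with 8.59, 8.15 and 8.73 CPM against 0.95, 2.31 and 1.48 (2.45, standard error 0.202, adjusted p = 4.80e-09). It had 19 to 41 counts in the SETDB1FF libraries and 171 to 185 in the SETDB1KO libraries. Even after this rise its level stayed under that of set A. In all, 3 genes were lower and 1 higher, where 11.4% and 18.5% of all genes were. *Tbx3* (−0.97), *Klf4* (−0.89), *Esrrb* (−0.64) and *Klf2* (−0.63) had negative values short of the threshold, *Prdm14* was at −0.30 and *Zfp42* at 0.67, and at an adjusted p under 0.05 alone all 10 passed, with 78.9% of all genes.

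With limma on log2(TPM + 0.1) the median of all genes was 0.49 in this comparison. *Tfcp2l1* (−0.71) was then not called and *Zfp42* (1.18) was. *Esrrb* was at −0.12 and *Prdm14*, on this scale, at 0.20. *Klf5* (−1.74), *Nr0b1* (−1.48) and *Dppa3* (2.99) were called in both. The median log2 fold change of the 625 genes of chromosome 14, which holds *Klf5*, was 0.31 against 0.007 elsewhere. The 2-cell-like genes summed to 47.5 to 52.4 CPM in SETDB1KO cells against 0.06 to 0.20, and primitive endoderm genes to 11.5 to 12.7 against 40.3 to 46.1, and their part was not tested.

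**Figure D3:**
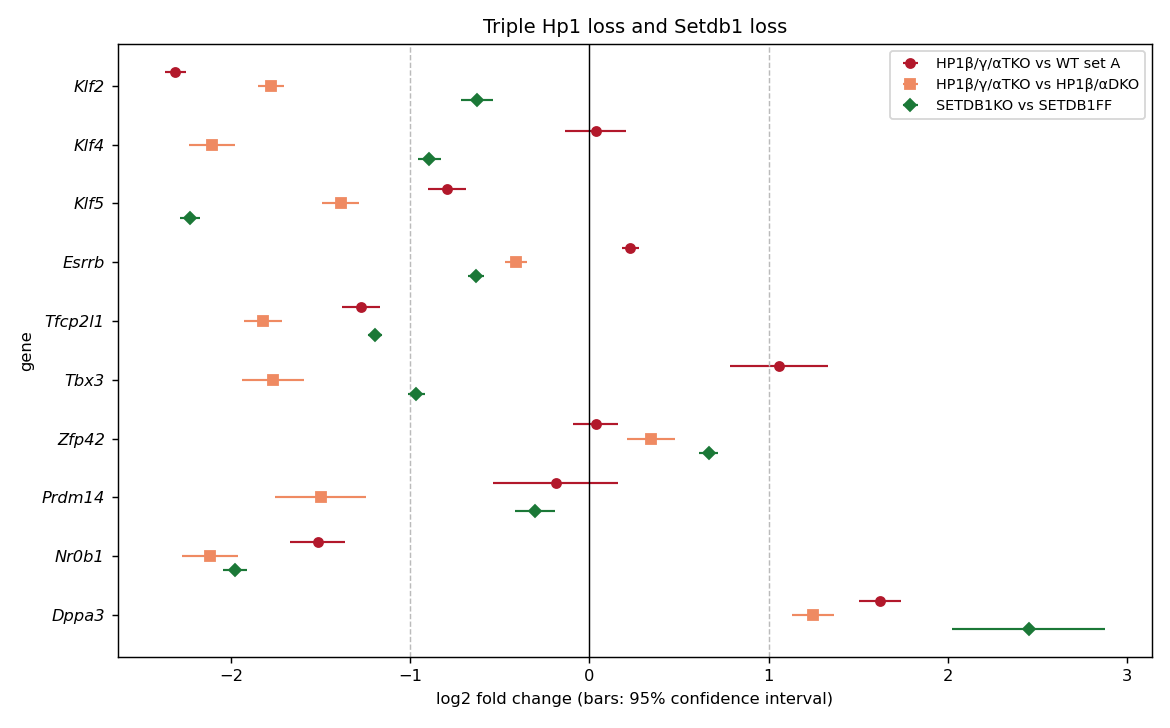
The log2 fold change of each gene with its 95% confidence interval (bars) in HP1β/γ/αTKO cells against set A (circles) and against HP1β/αDKO ESCs (squares), and in SETDB1KO cells against SETDB1FF ESCs (diamonds); dashed lines mark −1 and 1. *Dppa3* lies above 1 and *Nr0b1* and *Tfcp2l1* below −1 in all comparisons drawn, whereas *Tbx3* lies at 1.06 against set A and at −0.97 in SETDB1KO cells.

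The losses of the readers and of the writer were then compared gene by gene. The difference between the effects in HP1β/γ/αTKO cells against set A and in SETDB1KO cells had an adjusted p under 0.05 for 9 of the 10 genes, 5 above 0 and 4 below, where 31.3% and 33.6% of all genes were. For *Klf2* the effect in HP1β/γ/αTKO cells was the more negative, with a difference of −1.71 on the log2 scale (standard error 0.055, adjusted p = 1.25e-17). For *Klf5* that in SETDB1KO cells was, with a difference of 1.41 (0.051, adjusted p = 8.55e-17), and *Tbx3* had the largest difference at 2.0 (0.079, adjusted p = 5.28e-16). *Tfcp2l1* differed by −0.10 (adjusted p = 0.0393), which was not called with DESeq2 or TPM nor without the 3rd library of HP1β/γ/αTKO cells (−0.03), and *Prdm14* by 0.09 (95% confidence interval −0.21 to 0.39).

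The choice of the control decided the direction for a group of genes. With HP1β/αDKO ESCs in place of set A, an alternative chosen after the levels were seen, the difference of *Tbx3* was −0.83, that of *Klf4* −1.24 in place of 0.90, that of *Prdm14* −1.23 in place of 0.09 and that of *Nr0b1* −0.17 in place of 0.43. These members were higher in HP1β/αDKO ESCs than in set A. The SETDB1FF ESCs also started from other levels than set A, higher for 8 members and lower for *Klf2* and *Dppa3*.

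**Figure D4:**
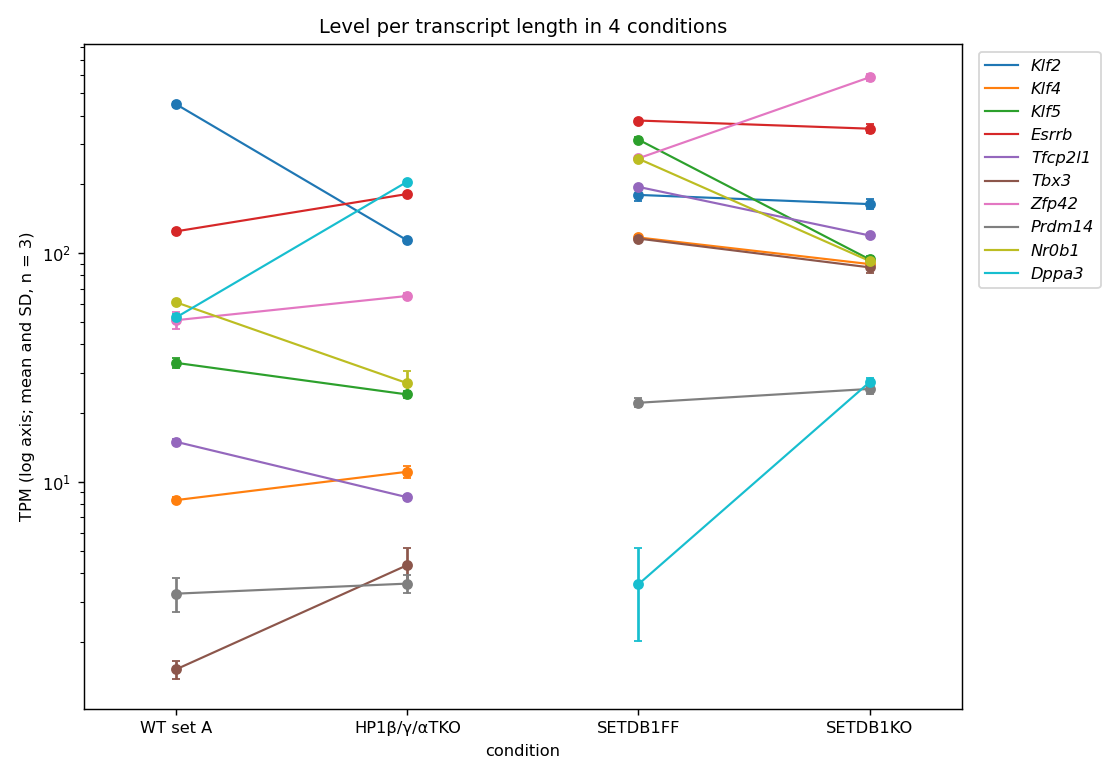
Level per transcript length (TPM, log axis; points are means and bars the SD of 3 libraries) in set A, HP1β/γ/αTKO cells, SETDB1FF ESCs and SETDB1KO cells, with lines joining a control to its mutant. *Dppa3* rises from 52.5 to 205.7 TPM on the left and from 3.57 to 27.3 TPM on the right.

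Per transcript length the order of the genes differed between the lines. In HP1β/γ/αTKO cells *Dppa3* (205.7 TPM) and *Esrrb* (181.6) led, followed by *Klf2* (113.7) and *Zfp42* (65.0), and *Tbx3* (4.33) and *Prdm14* (3.59) came last with overlapping libraries. In SETDB1FF ESCs *Esrrb* (380.4) and *Klf5* (313.8) led and *Dppa3* (3.57) was last. In SETDB1KO cells *Zfp42* led at 587.8 ± 18.7 TPM (SD, n = 3), and *Klf5*, *Nr0b1*, *Klf4* and *Tbx3* lay between 86.8 and 94.0 TPM, each overlapping with its neighbour.

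Across the 11 conditions 8 of the genes had a positive r with one another, as a description over condition means of log2 CPM. Pearson's r was 0.954 for *Tbx3* and *Prdm14*, 0.942 for *Klf5* and *Tfcp2l1*, and 0.938 for *Esrrb* and *Tbx3*. The lowest r among these 8 was 0.499, for *Zfp42* and *Nr0b1*. *Dppa3* had a negative r with all 8, down to −0.916 with *Tfcp2l1*, and *Klf2* stood apart, with r from −0.402 with *Zfp42* to 0.414 with *Nr0b1*. Of the 8, 7 were highest in SETDB1FF ESCs. Apart from *Nr0b1*, each of the 8 had its highest mean levels in SETDB1FF ESCs and SETDB1KO cells. *Tbx3* had 362 and 183.2 CPM there, against 96.6 in the next condition, and r without these conditions was not computed.

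Among the 11439 genes with a mean of at least 5 CPM, the gene outside the network most like each member was also found. It was *Sod1* for *Klf2* (r = 0.978), *Wdfy1* for *Klf4* (0.951), *Gjb5* for *Klf5* (0.970) and *Tiparp* for *Esrrb* (0.944). For *Tfcp2l1* it was *Uchl3* (0.987), for *Zfp42* *Dnajc15* (0.989), for *Nr0b1* *Mybl2* (0.955) and for *Dppa3* *Stard3* (0.974). *Tle5* was the one for both *Tbx3* (0.970) and *Prdm14* (0.981). Conditions from the same line or table are not independent points, and these values say nothing of shared function or control.

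Other genes of the naive state and of its signalling were set beside the network. Of 12 further naive-state genes, 7 were lower and 2 higher in HP1β/γ/αTKO cells against set A, where 17.1% and 25.1% of all genes were. Their median log2 fold change was −1.37, where that of all genes was 0.04. *Fgf4* (−2.94) and *Gbx2* (−2.80) had the largest decreases, and *Fbxo15* (1.07) and *Spic* (1.40), named after their values were seen, were higher. In SETDB1KO cells 5 were lower and 2 higher (median −0.14), where 11.4% and 18.5% of all genes were. The lower ones included *Gbx2* (−2.16), *Tdh* (−2.0) and *Tcl1* (−1.70). In HP1γ/αDKO ESCs 6 were called, each of them higher (median 1.2), where 6.75% of all genes were higher. *Tcl1* was at 2.52 and *Nr5a2* at 2.0. In HP1β/γDKO ESCs 3 were called, each of them lower (median −0.88), where 4.54% of all genes were lower. The 10 members had a median of −0.08, −0.76, 1.03 and −0.36 in the same order.

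Upstream, LIF receptor and STAT3 pathway genes were set beside them too. Of 7 tested, 3 were called in HP1β/γ/αTKO cells, each of them lower (median −0.94) where 17.1% of all genes were, namely the STAT3 targets *Socs3* (−2.01), *Pim1* (−1.92) and *Pim3* (−1.52). In SETDB1KO cells 1 was lower, *Pim3* (−1.89), where 11.4% of all genes were. In HP1β/γDKO ESCs 3 were lower, *Lifr* (−1.46), *Socs3* (−1.40) and *Pim3* (−1.24), where 4.54% of all genes were. The core factors *Sox2* (−1.59), *Nanog* (−1.5) and *Pou5f1* (−1.09) were lower in HP1β/γ/αTKO cells, which made 3 of 4, and their log2 fold changes in SETDB1KO cells ran from −0.72 for *Pou5f1* to 0.13 for *Sox2*. Of 7 regulators of the network 3 were lower in HP1β/γ/αTKO cells, *Foxd3* (−2.16), *Tcf3* (−1.71) and *Cbfa2t2* (−1.08), and in SETDB1KO cells *Foxd3* (−2.45) was.

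Genes of the formative state, which follows the naive one, were for the most part lower in HP1β/γ/αTKO cells too. Of 8 tested, 6 were lower and 1 higher (median −1.69), where 17.1% and 25.1% of all genes were. The largest decreases were those of *Lef1* (−2.30), *Pou3f1* (−2.02), *Zic2* (−1.73) and *Zic5* (−1.70). In HP1γ/αDKO ESCs, where 6 members were higher, 5 of 9 formative genes were lower and 1 higher (median −1.18), with 16.3% and 6.75% of all genes. In HP1αKO ESCs 4 of 9 were called, where 4.87% of all genes were. Each of them was higher (median 0.81), with *Otx2* at 2.47, beside a higher *Klf4*. In SETDB1KO cells 3 of 8 were higher and 1 lower (median 0.43), with 18.5% and 11.4% of all genes. Other Krüppel-like factors were mixed in HP1β/γ/αTKO cells, with 6 of 14 higher and 4 lower, where 25.1% and 17.1% of all genes were. *Klf10* had 632.8 CPM there against 47.1 in set A (3.78, standard error 0.030), whereas *Klf13* (−2.52) and *Klf3* (−2.13) were lower.

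Reads of the members were checked for other sources. At 90% identity over at least 150 bases, *Dppa3*, *Klf4*, *Klf5* and *Zfp42* had pseudogene copies, with 0 to 63 counts over the 33 libraries where the members had 17523 to 100704. *Tfcp2l1*, with 187332 counts, shared stretches of under 200 bases with 14 genes. Among them *Psma3* had 86958 counts and *Gm37724* 4624, and the others had 6 to 2906. The part of these stretches in the counts of *Tfcp2l1* was not tested. The antisense gene *Tbx3os1* overlaps *Tbx3* over 697 bases and had 164 counts in all, against 43297 for *Tbx3*.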

How the data were processed

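RNA-seq was read from 8 tables that the authors deposited, with 55487 genes and, for each of 33 libraries, the expected counts of RSEM and TPM values. Per the labels, the processing notes name TopHat2 2.1.1, RSEM, edgeR and GRCm38.p5; the methods name a stranded total RNA kit and the labels another, so that strand was not relied on. The fold change, p-value and group-mean columns hold the authors' own comparisons and were not used. Expected counts, of which 12.9% were not whole, were rounded. Genes were kept by filterByExpr (minimum count 10) and libraries scaled by TMM, and each mutant was tested against its control with edgeR 4.0.16 (quasi-likelihood, R 4.3.3), with Benjamini-Hochberg adjustment over all genes tested. A gene was called at an adjusted p under 0.05 and a log2 fold change beyond 1; differences of effects were called at an adjusted p under 0.05. The script was tested on simulated data. TPM keep no depth and were used for levels per length and, with limma 3.58.1 and a pseudocount of 0.1, as an alternative, on whose log2 scale the change of low genes is understated; DESeq2 1.42.0 was another. The CPM printed were scaled over all 33 libraries. Copies were sought with blastn 2.17.0, and promoter sequences are from RefSeq. Groups follow genotype labels, and titles part the wild-type libraries into 2 sets. The study states independent experiments, and p-values measure the spread between libraries only. Total counts had a median of 21522569. The genes named are the 10 members, the targeted genes, up to 4 genes of each list by the size of their change, the gene most like each member (mean of at least 5 CPM) and *Sall4*. Members and lists were chosen with earlier results of these data known. Of the trophoblast list, 3 of 6 genes tested were higher and 1 lower in HP1β/γ/αTKO cells, where 25.1% and 17.1% of all genes were.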

Additional observations from a re-analysis of the deposited data

Results flagged for a closer look

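Results are given here where the effects of different losses differed by a test of the difference itself (edgeR's quasi-likelihood test, 12 libraries, Benjamini-Hochberg adjustment). Between HP1β/γ/αTKO cells against set A and SETDB1KO cells against SETDB1FF ESCs, the difference on the log2 scale was −1.71 for *Klf2* (adjusted p = 1.25e-17), 0.90 for *Klf4* (2.97e-11), 1.41 for *Klf5* (8.55e-17), 0.84 for *Esrrb* (6.09e-17) and 2.0 for *Tbx3* (5.28e-16). It was −0.66 for *Zfp42* (1.57e-09), 0.43 for *Nr0b1* (4.7e-05), −0.86 for *Dppa3* (0.000373) and −0.10 for *Tfcp2l1* (0.0393).

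Between the loss of HP1α and HP1β together and the sum of their single losses, the difference was 1.09 for *Tbx3* (adjusted p = 3.56e-05), 0.62 for *Klf4* (2.03e-05), 0.61 for *Klf5* (1.14e-06) and 0.32 for *Klf2* (0.000192). It was 0.28 for *Tfcp2l1* (0.00051), 0.22 for *Esrrb* (0.00041) and −0.28 for *Nr0b1* (0.00169).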

How the results depend on the processing

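Of 2250 values of single genes under the alternatives, 2140 kept their side of the threshold, 73 passed it in addition, 33 no longer did and 4 changed sign with a call in at least 1 of the fits. Of the 2140, 36 had the other sign than the reported value, none of them called in either, with values between −0.30 and 0.41. The 4, all in the difference between HP1β/γ/αTKO and SETDB1KO effects with HP1β/αDKO ESCs as the control (chosen after seeing the data), were *Klf4* (−1.24), *Tbx3* (−0.83), *Prdm14* (−1.23) and *Nr0b1* (−0.17). The number of members called in HP1βKO ESCs was 1 with RLE size factors, DESeq2, no filter, a joint fit of all libraries, set B as the control or limma on TPM, in place of 0. It was 2 in HP1β/γDKO ESCs with set A as the control, and 3 in HP1γ/αDKO ESCs with library totals alone or limma on TPM, both chosen after seeing the data. With no threshold on the fold change it was 10 in HP1αKO, 7 in HP1βKO, 8 in HP1γKO, 10 in HP1β/αDKO, 8 in HP1β/γDKO, 10 in SETDB1KO and 4 between the *wild-type* sets. With 1 library left out it ran from 1 to 1 in HP1αKO, 0 to 1 in HP1βKO, 2 to 3 in HP1γKO, 3 to 3 in HP1β/αDKO, 4 to 6 in HP1γ/αDKO, 1 to 2 in HP1β/γDKO, 4 to 5 in HP1β/γ/αTKO and 4 to 4 in SETDB1KO cells, 8 to 8 against HP1β/αDKO ESCs, 0 to 0 between the *wild-type* sets, 8 to 9 for the difference of effects, 7 to 8 for the interaction, and 10 to 10 and 9 to 10 for SETDB1FF ESCs against sets A and B. Same-numbered libraries did not deviate together (correlations from −0.056 to 0.058). With the replicate number as a block the count in HP1γ/αDKO ESCs was 5 (*Tfcp2l1* at 0.94), and no other call changed. In HP1β/γDKO ESCs each of the 3 libraries correlated best with its own number. The causes of these changes were not tested. Among the members *Dppa3* in SETDB1FF ESCs had the fewest counts (19 to 41). Genes of the lists had fewer, such as *Spic* with 4 to 16 in set A and *Lef1* with 13 to 18 in HP1β/γ/αTKO cells.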
